A study of Mus musculus with 24 samples.

Results

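A set of 10 granin and prohormone processing genes was followed through the RNA and the ribosome-protected fragments (RPFs, or footprints) of mouse hippocampal slices: Resp18, Scg2, Scg3, Scg5, Chga, Chgb, Pcsk1, Pcsk2, Pcsk1n and Cpe. They were taken by name, and all 10 passed the filter on low counts among the 14516 genes tested for RNA and the 12877 tested for RPFs. The group was chosen by the RPF change of Resp18 upon DHPG, averaged over genotypes, which had an adjusted p under 0.1 in these same libraries, and the rest of the list holds other dense-core vesicle genes. RPF changes upon DHPG, and changes in RPFs per RNA upon DHPG, are therefore given as description with no test. The RNA response to DHPG, the comparisons of genotypes and their interaction with DHPG were tested.

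The slices came from male wild-type (WT) and germline Tsc2+/- littermates on a C57BL/6J background, aged 28 to 42 days per the labels, with a slightly narrower range in the study's methods. The Tsc2+/- line came from a cross of CMV-Cre with Tsc2flox mice, so that 1 copy of Tsc2 was lost throughout the body. TSC2 is a subunit of the complex that restrains the growth kinase mTORC1, and the study asked which mRNAs it controls at rest and after synaptic plasticity. Slices received vehicle (artificial cerebrospinal fluid) or DHPG, which activates metabotropic glutamate receptors of group I and induces long-term depression, at 100 µM for 5 min. CA3 had been cut away, and every slice received cycloheximide at 100 µg/ml to hold ribosomes in place. Slices of several mice were pooled in each library, RNA and RPFs were taken from the same lysate, and each of the 4 groups had 3 libraries per assay. The study's methods call the pools of a group biological replicates, and p-values measure the spread between these pools. In such bulk samples, fewer cells of a type and less RNA per cell cannot be told apart.

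Dense-core vesicles store neuropeptides and hormones and release them on calcium entry. Granins (Chga, Chgb, Scg2, Scg3) are acidic proteins that aggregate in the trans-Golgi network and help to sort cargo into these vesicles. Prohormones are cut at basic residues by the convertases encoded by Pcsk1 and Pcsk2, the exposed basic residues are trimmed by carboxypeptidase E (Cpe), and the convertases are held in check or assisted by the small proteins encoded by Pcsk1n (proSAAS) and Scg5. Resp18 encodes a neuroendocrine protein of the secretory pathway.

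The coding starts of 4 members are shown because the libraries described below differed with base composition and because Resp18 has the shortest coding sequence of the group. Each line gives coding bases 1 to 120 of the RefSeq transcript on GRCm38.p6, 5′ to 3′. Capitals mark the first 30 bases, which were left out of the RPF counts.
Resp18: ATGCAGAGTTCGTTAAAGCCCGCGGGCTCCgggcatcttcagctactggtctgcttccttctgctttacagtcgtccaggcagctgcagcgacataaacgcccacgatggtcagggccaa
Pcsk1n: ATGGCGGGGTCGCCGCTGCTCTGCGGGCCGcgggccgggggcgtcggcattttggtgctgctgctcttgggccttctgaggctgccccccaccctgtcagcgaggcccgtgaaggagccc
Chga: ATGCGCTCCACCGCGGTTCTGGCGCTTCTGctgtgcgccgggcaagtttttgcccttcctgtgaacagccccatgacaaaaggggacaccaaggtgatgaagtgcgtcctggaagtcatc
Scg2: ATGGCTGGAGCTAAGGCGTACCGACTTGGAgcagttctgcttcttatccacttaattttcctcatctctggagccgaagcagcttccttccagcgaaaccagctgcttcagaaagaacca
Resp18 (chromosome 1, 75272197 to 75278415, minus strand) has a coding sequence of 528 nt, shorter than in all but 8.26% of the genes compared, with 51.9% G or C. Pcsk1n (chromosome X, 7919822 to 7924410, plus strand) has 71.9% G or C over 777 nt, higher than in 99.7% of genes, and Chga (chromosome 12, 102554941 to 102565027, plus strand) has 59.3%. Scg2 lies on chromosome 1 (79434366 to 79440026, minus strand), Scg3 on chromosome 9 (75643366 to 75685959, minus) and Pcsk1 on chromosome 13 (75089420 to 75134861, plus). Chromosome 2 holds Scg5 (113776313 to 113829091, minus), Chgb (132781642 to 132795079, plus) and Pcsk2 (143546133 to 143816284, plus), and Cpe is on chromosome 8 (64592542 to 64693109, minus). In G or C content the other members lay between 44.8% (Scg3) and 53.9% (Cpe), and the median over all genes was 53.1%.

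Scg2, Chgb and Pcsk1 share a cyclic AMP response element, TGACGTCA, in the RefSeq promoter window from 250 bases before to 50 bases after the start site. The motif reads the same on both strands and is in capitals below, on the strand of each gene.
Scg2, chr1:79440076-79440105, minus strand: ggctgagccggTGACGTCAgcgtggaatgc
Chgb, chr2:132781559-132781588, plus strand: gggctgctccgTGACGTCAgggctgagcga
Pcsk1, chr13:75089768-75089797, plus strand: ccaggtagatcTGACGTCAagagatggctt
The motif began 68, 72 and 78 bases before the start site used by the promoter table in Scg2, Chgb and Pcsk1, and that start site of Pcsk1 lies inside the annotated span of the gene. Of the 9 members with a promoter entry, 3 held it, against 549 of 27025 genes (2.03%) or 588 of 32851 promoters (1.79%). The shorter TGACG on either strand, which the full motif contains, was in 7 of the 9, against 23.0% of genes and 20.8% of promoters. These matches describe letters in a window and no binding was measured.

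RNA libraries held 14801679 to 24067838 counts and RPF libraries 5296006 to 13613673. Tsc2 RNA, the check of the genotype labels, was 0.58 lower on the log2 scale in Tsc2+/- (log2 fold change -0.58, SE 0.038, adjusted p 2.62e-12, edgeR). Summed CA1 markers stood at 1639 to 1815 CPM (TMM-scaled counts over library size) in RNA, CA3 markers at 39.2 to 47.6, dentate granule cell markers at 22.1 to 53.9 and interneuron markers at 905 to 975. Of the hypothalamic markers, Oxt, Avp and Hcrt had 3 counts or fewer in every RNA library. The dentate marker Prox1 was called lower in Tsc2+/- RNA (log2 fold change -0.41, adjusted p 0.0256), as was the blood marker Hbb-bt (-3.06, adjusted p 0.000502). In RNA, summed blood markers stood at 16.3 to 35.2 CPM in WT and at 2.59 to 17.7 in Tsc2+/-. Under DHPG, summed dentate markers stood at 39.4 to 45.4 CPM in WT RNA and at 22.1 to 28.5 in Tsc2+/- RNA. In RPFs under DHPG they stood at 38.7 to 41.0 in WT and at 21.2 to 30.3 in Tsc2+/-. In vehicle the dentate sums of the genotypes overlapped in both assays. The part of these markers in the genotype differences below was not tested. The RPF library of WT vehicle replicate 1 stood apart from the others and was the highest or the lowest of the 12 for 33.9% of genes, against 5.57% to 27.9% in the other RPF libraries. Its deviations correlated across 12238 genes, which are not independent replicates, with coding G and C content at r = 0.55, against -0.15 to 0.19 in the other 11.

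The members spanned a wide range of abundance, and 9 of the 10 carried more footprints per RNA than the median gene. Levels between genes are compared here as RPKM (CPM per kilobase) in WT vehicle, with RPFs over the counted coding bases. Cpe, the trimming enzyme, was the most abundant at 1417 RNA RPKM ± 43.8 (SD, n = 3), followed by Pcsk1n at 286 ± 14.3, Scg3 at 146 ± 8.25, Scg5 at 125 ± 11.4, Chgb at 112 ± 9.30, Scg2 at 92.1 ± 6.39 and Chga at 80.5 ± 2.68. Resp18 (56.0 ± 3.16) and Pcsk2 (55.8 ± 1.75) were lower, and the convertase Pcsk1 was lowest at 2.59 ± 0.222. In this order the libraries of Scg5 and Chgb overlapped, as did those of Resp18 and Pcsk2, and the other neighbours did not. In RPFs, Cpe led at 3395 RPKM, Scg3 was at 693 and Scg5 at 632, Pcsk1n at 396 ± 174, Scg2 at 388, Chgb at 361, Chga at 235, Pcsk2 at 233, Resp18 at 215 and Pcsk1 at 35.8. These means include the deviating RPF library of replicate 1. Pcsk1n was at 596 RPKM in it, and at 317 and 276 in replicates 2 and 3. From Scg5 to Chgb, and from Chga to Resp18, each gene overlapped its neighbour in RPFs.

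Footprints per RNA, the RPF RPKM divided by the RNA RPKM of the same lysate, ordered the members differently. Pcsk1 had the highest ratio of the members, 13.9 ± 1.52 (SD, n = 3), above 98.9% of the 11995 genes with a coding sequence of at least 300 nt. Scg5 followed at 5.12 ± 0.862, Scg3 at 4.74 ± 0.0831, Scg2 at 4.21 ± 0.168, Pcsk2 at 4.17 ± 0.285 and Resp18 at 3.85 ± 0.743. Chgb stood at 3.20 ± 0.263, Chga at 2.93 ± 0.559, Cpe at 2.40 ± 0.0740 and Pcsk1n at 1.40 ± 0.673. The ratio of Pcsk1n was 2.17 in replicate 1, with the deviating RPF library, and 1.13 and 0.913 in replicates 2 and 3. For Chga it was 3.57, 2.65 and 2.56. The median ratio of all genes was 2.24, with quartiles of 1.34 and 3.69, and that of the members was 4.01. Neighbours in this order did not overlap between Pcsk1 and Scg5, Scg3 and Scg2, Chga and Cpe, and Cpe and Pcsk1n, and overlapped elsewhere. RNA was counted over whole transcripts and RPFs over trimmed coding sequence, so the ratio also depends on the annotated lengths.

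**Figure D1:**
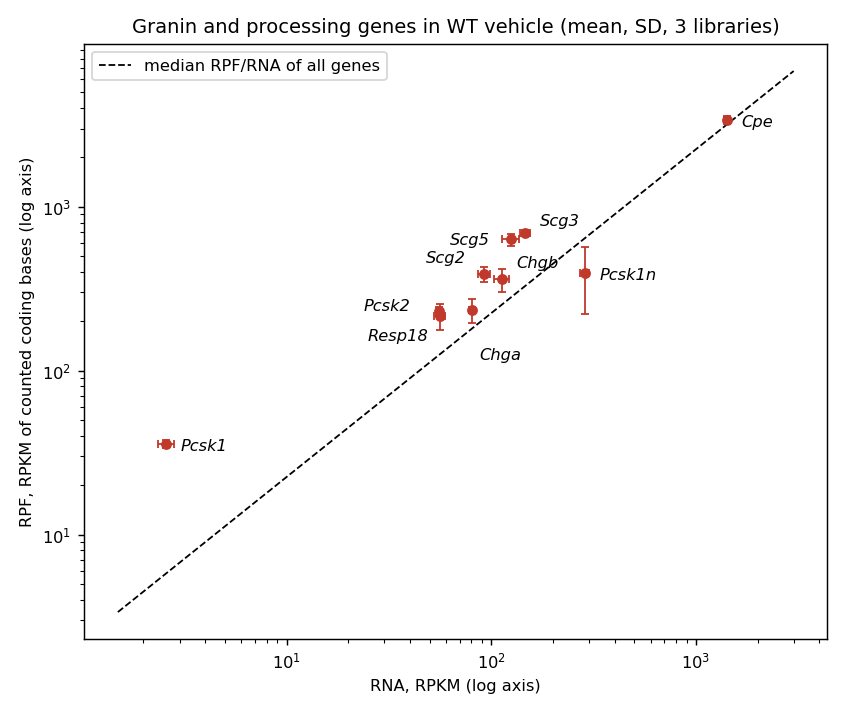
RPF level against RNA level of the 10 genes in WT vehicle, both in RPKM on log axes, as the mean and SD of 3 libraries. The dashed line is the median RPF/RNA ratio of all genes (2.24), and only Pcsk1n (1.40) lies below it.

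Resp18 footprints were higher after DHPG in all 6 contrasts of same-numbered libraries, while its RNA passed no test. Its RPF level in CPM was 83.1, 119.9 and 99.3 in vehicle and 120.0, 144 and 121 in DHPG for WT, and 101, 129.7 and 119 in vehicle and 136, 139.8 and 125 in DHPG for Tsc2+/- for replicates 1, 2 and 3 (522 to 1649 counts a library). The WT vehicle and WT DHPG libraries did not overlap, though the highest vehicle and the lowest DHPG library nearly met, and those of Tsc2+/- overlapped. Such full separation of 3 libraries from 3 was found for 8.96% of all genes in this comparison and for 8.20% to 10.3% over the 8 comparisons of RNA or RPF groups, in each of which 1 or 2 of the 10 members were separated. The WT mean was 101 CPM ± 18.5 in vehicle and 128 ± 13.4 in DHPG, and the Tsc2+/- mean was 116 ± 14.6 and 133 ± 7.84 (SD, n = 3). In the fit, the RPF log2 fold change upon DHPG was 0.36 (SE 0.078) in WT and 0.21 (SE 0.077) in Tsc2+/-. Averaged over genotypes it was 0.28 (SE 0.055), a fold of 1.22 with a 95% interval of 1.13 to 1.32, and 97.1% of genes had a lower value. This is the value that chose the gene: 0.0311% of genes were called in that contrast, and by p it was the last of the 4 inside the threshold, after Npcd (-0.35), Atp6v1f (0.27) and Nrsn1 (-0.41). Just outside lay Lmo4 (0.22), Ap1s1 (0.21) and Mprip (-0.22).

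The size of the Resp18 RPF difference depended on single libraries. Without the RPF library of WT vehicle replicate 1, in which Resp18 was at its lowest, the log2 difference was 0.27 (SE 0.078) in WT and 0.24 (SE 0.051) on average. With every replicate 1 library left out, it was 0.18 on average and 0.09 in Tsc2+/-, and without Tsc2+/- DHPG replicate 1 alone it was 0.10 in Tsc2+/-. The direction of the RPF difference was kept when any one library or replicate number was left out. The libraries are those that chose Resp18 by this value, so the kept direction is description and no support for it. With each library's trend in coding G and C content and length removed, an alternative chosen after seeing the data, it was 0.29 in WT, 0.19 in Tsc2+/- and 0.24 on average.

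Resp18 RNA in CPM was 40.3, 40.9 and 44.7 in vehicle and 42.3, 44.2 and 45.1 in DHPG for WT, and 39.3, 48.4 and 40.3 in vehicle and 46.4, 46.2 and 46.5 in DHPG for Tsc2+/-. Vehicle and DHPG libraries overlapped in both genotypes, with the highest value in a Tsc2+/- vehicle library. The tested log2 fold change of Resp18 RNA upon DHPG was 0.07 in WT (SE 0.081, p 0.414) and 0.12 in Tsc2+/- (SE 0.077, p 0.128). Averaged over genotypes it was 0.09 (SE 0.056, 95% interval -0.02 to 0.21, p 0.104, adjusted p 0.719, higher in 5 of 6 contrasts). Footprints per RNA of Resp18, per length, were 3.30, 4.70 and 3.56 in vehicle and 4.54, 5.22 and 4.32 in DHPG for WT, and 4.11, 4.29 and 4.72 in vehicle and 4.68, 4.86 and 4.30 in DHPG for Tsc2+/-. These ratios overlapped between vehicle and DHPG in both genotypes. Translational efficiency (TE) compares the RPF response with that of the RNA, and its log2 change upon DHPG was 0.29 (SE 0.11) in WT, 0.09 (SE 0.11) in Tsc2+/- and 0.19 (SE 0.078) on average, with 5 of 6 contrasts higher. In the averaged contrast 0.0469% of genes were called, from which nothing is read for Resp18. Without the RPF library of WT vehicle replicate 1, the WT value was 0.20 and the average 0.15. The average was 0.12 without replicate 1 and also 0.12 with the trend in G and C content and length removed. In Tsc2+/- the TE value was -0.016 without the RNA library of vehicle replicate 2 and -0.015 without the RPF library of DHPG replicate 1. The difference between genotypes in the Resp18 response did not pass the test, with an RPF interaction of -0.15 (SE 0.11, 95% interval -0.37 to 0.08, adjusted p 0.996, edgeR).

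**Figure D2:**
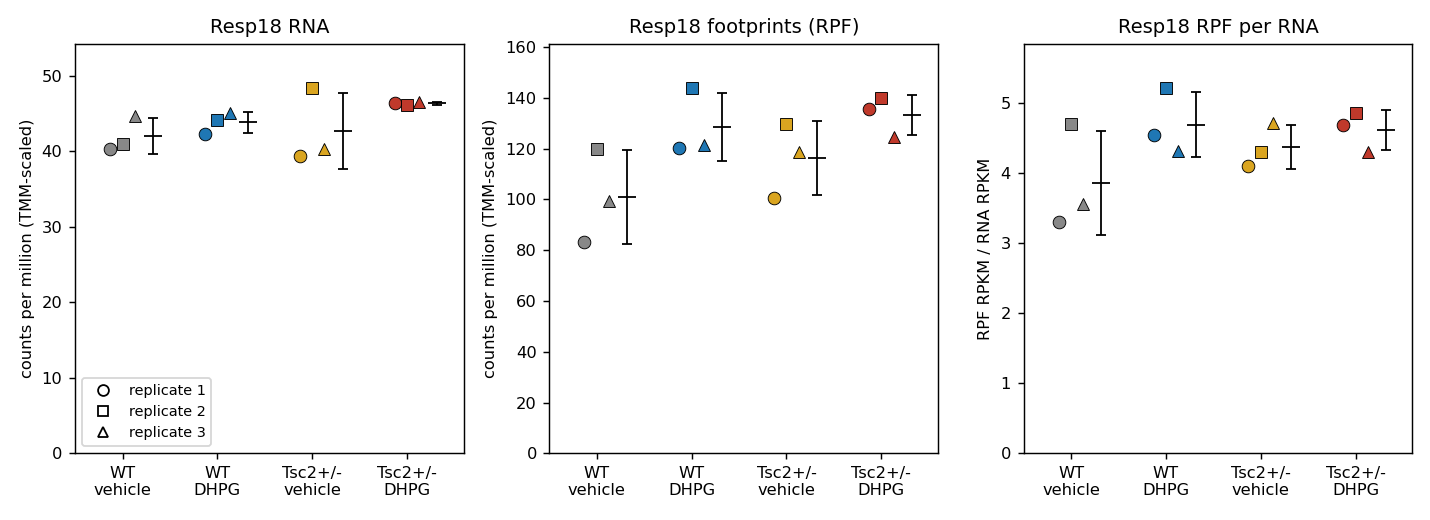
Resp18 in each library by group: RNA and RPFs in TMM-scaled CPM and the RPF/RNA ratio of RPKM values, with marker shape for the replicate number and the group mean and SD beside the points. RPF values lie at 83.1 to 119.9 in WT vehicle and at 120.0 to 144 in WT DHPG.

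Footprints of the 4 granins had averaged log2 fold changes upon DHPG of -0.03 for Scg2, -0.02 for Scg3, -0.03 for Chga and -0.05 for Chgb (SE 0.033 to 0.068). In the same order they were -0.03, -0.04, -0.14 and -0.10 in WT, and -0.04, -0.01, 0.07 and -0.01 in Tsc2+/-. Without the RPF library of WT vehicle replicate 1, the WT values were -0.0062 for Chga and 0.03 for Chgb. Scg3, which binds Chga and the vesicle membrane, had the smallest RPF spread of the 4, with a coefficient of variation of 4.62%. Its RPF level in CPM was 984, 923 and 912 in vehicle and 919, 919.8 and 909.8 in DHPG for WT, and 995, 1025 and 965 in vehicle and 1014, 1015 and 944 in DHPG for Tsc2+/-. Every Tsc2+/- DHPG library lay above every WT DHPG library, while in vehicle the genotypes overlapped. Scg3 RNA in CPM was 343, 318 and 307 in vehicle and 340.3, 359 and 310.3 in DHPG for WT, and 348, 350.1 and 352 in vehicle and 337, 358 and 328 in DHPG for Tsc2+/-, and in vehicle all 3 Tsc2+/- libraries lay above all 3 WT libraries. Across both treatments the genotype difference of Scg3 RPFs was 0.10 on the log2 scale (SE 0.033, 95% interval 0.03 to 0.16, p 0.00582, higher in 6 of 6 contrasts) and its adjusted p was 0.563. Without the RPF library of WT vehicle replicate 1 it was 0.11 (SE 0.029, adjusted p 0.266), and with the trend in G and C content and length removed it was 0.058 (SE 0.033, adjusted p 0.748). In RNA of vehicle slices it was 0.12 (SE 0.052, p 0.026, adjusted p 0.962).

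Chga RPFs in CPM were 373, 281 and 285 in vehicle and 291, 284 and 277 in DHPG for WT, and 274, 277 and 268 in vehicle and 296, 290.1 and 274 in DHPG for Tsc2+/-. WT vehicle replicate 1 was far above the other 11 libraries, and all Tsc2+/- vehicle libraries lay below all WT vehicle libraries. The genotype difference in vehicle was -0.19 (SE 0.067, p 0.00663, adjusted p 0.569, lower in 3 of 3 contrasts), and without that library it was -0.06 (SE 0.055, adjusted p 0.873). Likewise the interaction of Chga was 0.21 (SE 0.094, p 0.0352, adjusted p 0.996) and without it 0.08 (SE 0.073). With the trend in G and C content and length removed and the library kept, these were -0.14 (SE 0.053, adjusted p 0.702) and 0.18 (SE 0.075, adjusted p 0.992). Chga RNA ranged from 142 to 164 CPM over the 12 libraries.

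Scg2, the precursor of secretoneurin, and Chgb were likewise highest in WT vehicle replicate 1. Scg2 RPFs in CPM were 774, 635 and 681 in vehicle and 675, 658 and 710.4 in DHPG for WT, and 649.7, 728 and 696 in vehicle and 629.7, 689 and 705 in DHPG for Tsc2+/-, and no compared groups were fully separated. Chgb RPFs in CPM were 829, 603 and 704 in vehicle and 712, 619 and 663 in DHPG for WT, and 704, 702 and 707 in vehicle and 636, 744 and 714 in DHPG for Tsc2+/-, and here too the compared groups overlapped. RNA of Scg2 ranged from 232 to 278 CPM and RNA of Chgb from 240.1 to 311. The RNA of Scg2 had a log2 genotype difference of 0.07 (SE 0.038, adjusted p 0.836) and that of Chgb one of -0.01 (SE 0.053).

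Among the processing enzymes, Cpe had the smallest spread in RPFs, with a coefficient of variation of 3.95% over the 12 libraries. Its RPF log2 fold change upon DHPG was 0.01 (SE 0.031), its RNA change 0.03 (SE 0.030, adjusted p 0.833), and its genotype difference 0.05 in RPFs (SE 0.031, adjusted p 0.813) and 0.02 in RNA. The convertase Pcsk2 ranged from 256 to 289.5 CPM in RNA and from 393 to 473 in RPFs. Its RPFs were higher after DHPG in 6 of 6 contrasts, by 0.07 on the log2 scale (SE 0.039), and the Tsc2+/- DHPG libraries lay above those of Tsc2+/- vehicle. Its RNA upon DHPG in Tsc2+/- was at -0.07 on the log2 scale (SE 0.050, adjusted p 0.959), with every DHPG library below every vehicle library. The TE of Pcsk2 differed between genotypes in vehicle by -0.15 (SE 0.074, p 0.0509, adjusted p 0.932). Pcsk1 had the fewest RNA counts of the members, 10.98 to 15.2 CPM, and the largest RNA coefficient of variation at 10.1%. Its RPFs ranged from 74.4 to 94.4 CPM, with a log2 fold change of 0.04 (SE 0.057) upon DHPG and of 0.07 (SE 0.057, adjusted p 0.852) between genotypes.

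The convertase partners came next. Scg5, which chaperones the Pcsk2 product, ranged from 320.4 to 396 CPM in RPFs, with log2 fold changes of 0.03 (SE 0.047) upon DHPG and -0.09 between genotypes (SE 0.047, p 0.0621, adjusted p 0.744). Without replicate 3 the genotype difference was -0.19 (adjusted p 0.0700), which passes the threshold. No other of the 15 leave-out fits called this difference. The share of all genes called in the fit without replicate 3 is not given here, so nothing is read from that call for Scg5. Pcsk1n, the inhibitor of the Pcsk1 product, had the widest RPF spread of the members, with a coefficient of variation of 27.1%. Its RPFs in CPM were 428, 227 and 198 in vehicle and 237, 218 and 201 in DHPG for WT, and 258, 215 and 233 in vehicle and 219.5, 186 and 200.4 in DHPG for Tsc2+/-. WT vehicle replicate 1 stood far above the other 11 libraries. The averaged RPF log2 fold change of Pcsk1n upon DHPG was -0.28 (SE 0.14, lower in 5 of 6 contrasts). Without that library it was -0.12 (SE 0.043), or -0.03 in WT and -0.22 in Tsc2+/-. With the trend in G and C content and length removed and the library kept, it was -0.23 (SE 0.047), or -0.24 in WT and -0.22 in Tsc2+/-. The value in TE was -0.42 (SE 0.16) with it and -0.26 (SE 0.079) without it. Its genotype difference in RPFs was -0.18 (SE 0.14, 95% interval -0.52 to 0.17, adjusted p 0.869), without that library -0.02 (SE 0.043), and with the trend removed -0.08 (SE 0.047).

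Pcsk1n RNA in CPM was 603, 617 and 663 in vehicle and 687, 698 and 664 in DHPG for WT, and 670.5, 492 and 561 in vehicle and 671, 603 and 631 in DHPG for Tsc2+/-. In WT every DHPG library lay above every vehicle library, and in Tsc2+/- they overlapped. Vehicle and DHPG nearly met in WT replicate 3 (662.9 and 663.8), which set the WT separation, and in Tsc2+/- replicate 1 (670.5 and 671.2). With these included, Pcsk1n RNA was higher after DHPG in 6 of 6 contrasts, by 0.14 on the log2 scale (SE 0.051, p 0.0167, adjusted p 0.571, edgeR). It was lower in Tsc2+/- in 5 of 6 contrasts, with a log2 difference of -0.12 (SE 0.051, p 0.0283, adjusted p 0.749). This genotype difference was called when the RNA library of Tsc2+/- vehicle replicate 1 was left out, at -0.18 (adjusted p 0.0412), and also without replicate 1, where it was -0.21 (adjusted p 0.0280). It was -0.05 without replicate 2. With the trend in G and C content and length removed it was -0.05 (adjusted p 0.795). Leave-out fits numbered 15 per assay, and the share of all genes called in them is not given here. Eras overlaps Pcsk1n on the opposite strand and noncoding genes overlap Pcsk2, and although the RNA kit keeps the strand, the sources used here do not give whether the counting used it, so a share of opposite-strand reads in these genes was not tested.

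**Figure D3:**
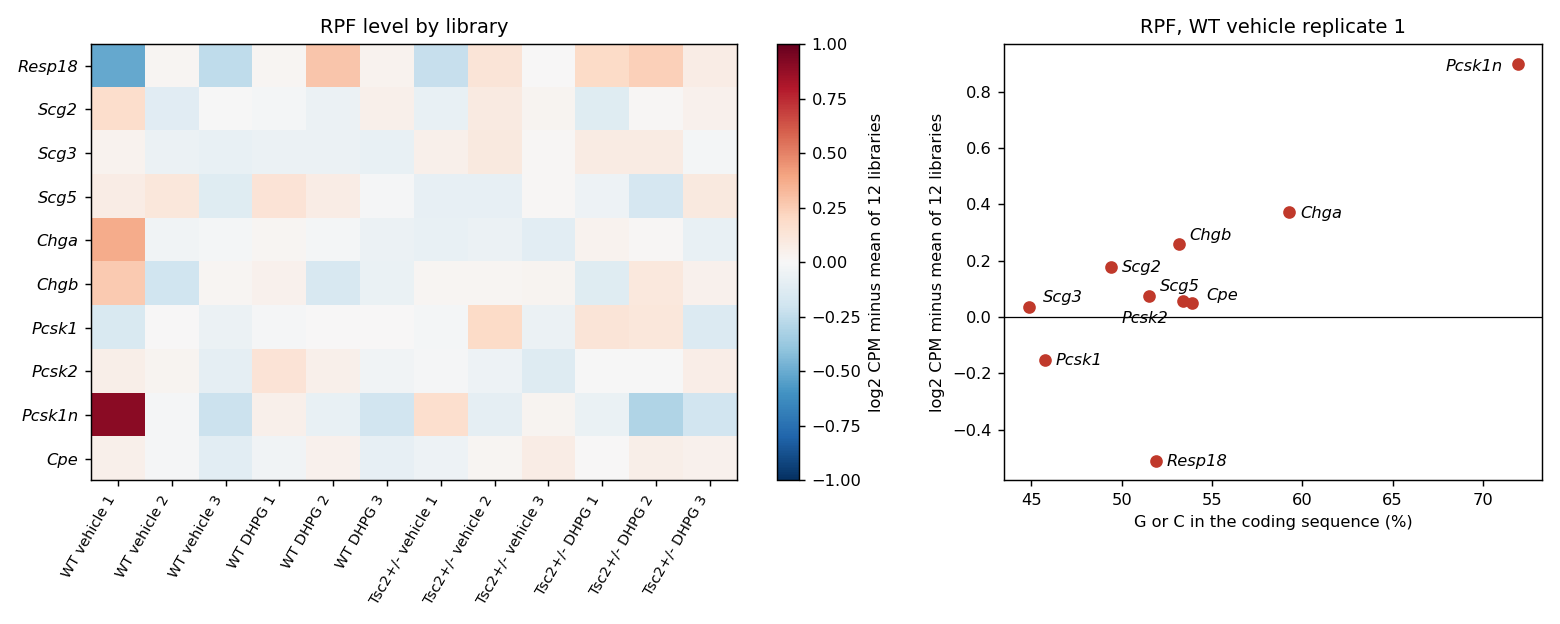
RPF level of the 10 genes in each of the 12 RPF libraries as log2 CPM minus the gene's mean (color scale from -1 to 1), and the deviation in WT vehicle replicate 1 against the percent of G or C in the coding sequence, one point per gene. Pcsk1n (71.9% G or C) lies highest in that library and Resp18 (51.9%) lowest.

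The plot of RPF levels by library shows that WT vehicle replicate 1 was the highest of the 12 libraries for Scg2, Chga, Chgb and Pcsk1n and the lowest for Resp18 and Pcsk1. In it, 6 of the 10 members were at an extreme, against 33.9% of all genes. Its fitted trend with G and C content and length was 0.49 on the log2 scale at Pcsk1n and -0.07 at Resp18. What set this library apart was not tested.

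No member was called in any tested comparison. For RNA upon DHPG, 0 of 10 members were called in WT, in Tsc2+/- and on average, against 0%, 0% and 0.0207% of all genes (0, 0 and 3 of 14516 by edgeR). All genes with an unadjusted p under 0.05 numbered 881, 706 and 1104, and DESeq2 called 0, 0 and 26. The members' median averaged change was 0.02 with a range of -0.05 to 0.14, beside a median of -0.00 over all genes, and no 95% interval of a member reached beyond 0.24 in either direction. Pcsk1n was the one member with an unadjusted p under 0.05.

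Between genotypes, 0 of 10 members were called in RNA in vehicle, in DHPG and on average, against 0.0964%, 0.0482% and 0.248% of all genes. Their median averaged difference was 0.02, with a range of -0.12 to 0.07, and their intervals stayed within 0.23. In RPFs, 0 of 10 were called in vehicle, in DHPG and on average, against 0.0233%, 0.0155% and 0.0544% of all genes, with a median averaged difference of 0.01 and a range of -0.18 to 0.13. Resp18 had an RPF difference of 0.21 in vehicle (SE 0.080, p 0.0141, adjusted p 0.656, higher in 3 of 3 contrasts) and 0.13 on average (SE 0.055, p 0.0201, adjusted p 0.647, higher in 5 of 6). Without the RPF library of WT vehicle replicate 1 these were 0.12 (SE 0.080) and 0.09 (SE 0.051). In TE, 0 of 10 members were called in vehicle, in DHPG and on average, against 0% of all genes each time (0 of 12785 by edgeR, with 648, 344 and 514 genes at an unadjusted p under 0.05, and 1, 0 and 0 called by DESeq2). The genotype and DHPG comparisons share the 3 WT vehicle libraries of an assay.

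The interaction of genotype and DHPG was called for 0 of 10 members in RNA, RPFs and TE, and for 0% of all genes in each (edgeR), with 510, 494 and 483 genes at an unadjusted p under 0.05 and 0 called by DESeq2 (1 in RPFs by ComBat with DESeq2, not a member). Of the members' intervals, the furthest reach was 0.52 on the log2 scale for the RNA interaction and 0.83 for RPFs. Differences in the response of up to these sizes lie within the intervals of single members. The median SE of the members was 0.083 in RNA and 0.094 in RPFs.

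**Figure D4:**
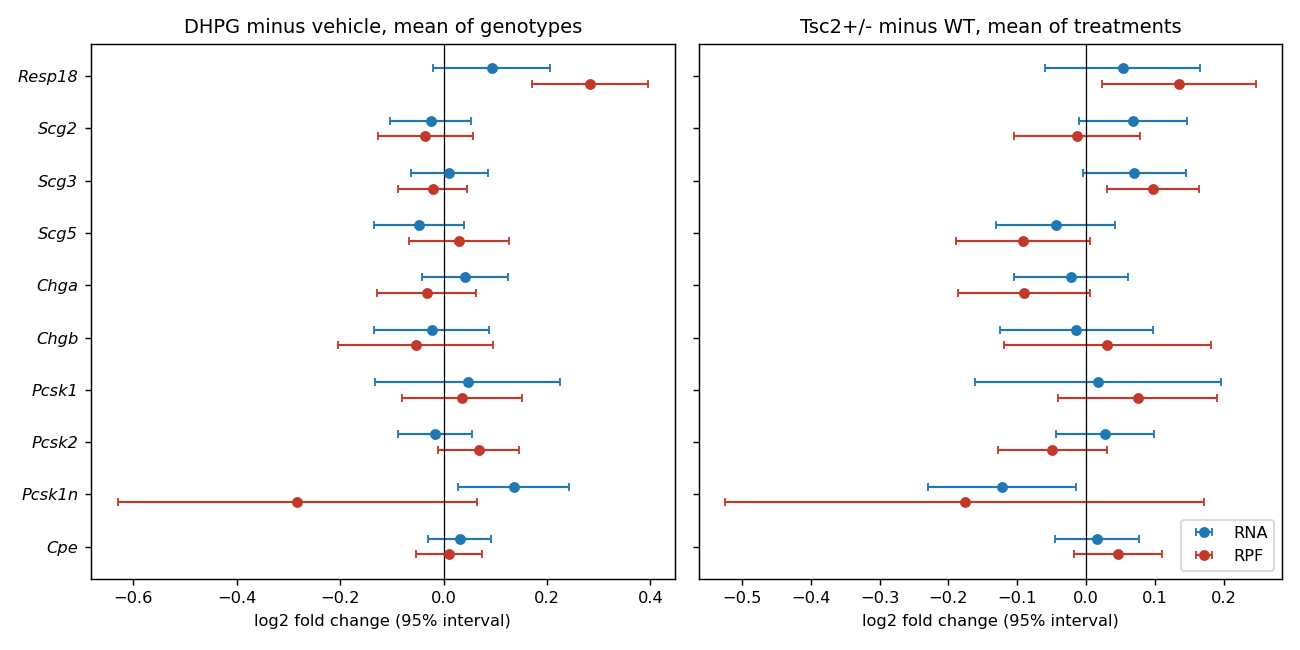
Log2 fold changes of the 10 genes in RNA and RPFs with 95% intervals, for DHPG against vehicle averaged over genotypes and for Tsc2+/- against WT averaged over treatments. RPF values upon DHPG are a description, since that contrast chose the group; Resp18 lies at 0.28 there, and Pcsk1n has the widest RPF intervals.

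Correlations between members within groups differed with and without that library. Taking each gene's deviation from its fitted mean over the 12 RPF libraries, Scg2 and Chga correlated at r = 0.90, and Pcsk1n and Chga at 0.86. Over the 11 libraries without WT vehicle replicate 1 these were 0.37 and -0.72. Scg2 and Chgb kept 0.74 (from 0.88), Scg3 and Chga 0.79 (from 0.79), and Resp18 and Chgb -0.63 (from -0.80). Scg3 and Pcsk1 had 0.37 with it and 0.96 without it. In RNA, Pcsk2 and Pcsk1n had r = 0.80 and Chgb and Pcsk1 0.72, while Resp18 and Pcsk2 had -0.70. These values share library depth and base composition and are given as description, without a test.

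The genes whose RPF log2 CPM was most like that of Resp18 over the 12 libraries, after each replicate number's mean was subtracted and of 10163 with a mean count of at least 50, were Reep1 (r = 0.93), Arl16 (0.93), Dynll2 (0.92), Zfp706 (0.92) and Timp2 (0.92). Without WT vehicle replicate 1 they had 0.88, 0.86, 0.88, 0.86 and 0.87. These are the highest of 10163 correlations, rechecked in the same libraries, and the DHPG difference that chose Resp18 was left in. The values are description, without a test. In RNA, of 12047 genes, the most alike were Nfkb2 (0.92), Aloxe3 (0.90), Ccl4 (0.88), Kifc3 (0.88) and Plaur (0.87), none of which was among the RPF genes named. Of the members, Pcsk1 had the highest likeness to Resp18 in RPFs over the 12 libraries (0.56) and Pcsk1n the lowest (-0.76). Without WT vehicle replicate 1, Pcsk1 had 0.27 and Pcsk1n -0.41, and Cpe was the highest at 0.63 (from 0.16).

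Other genes of the pathway were counted in 4 lists. Of 22 neuropeptide precursors, 21 were tested in RNA and 20 in RPFs; of 11 further prohormone processing enzymes, 10 and 9; of 18 genes of vesicle formation, 17 and 17; and of 26 genes of the vesicle membrane and release, 25 and 23. In every tested comparison, 0 genes of each list were called in either direction. Of all genes, 0% to 0.248% were called in these comparisons, so 0 calls in lists of this size say little about them. The smallest adjusted p for RNA upon DHPG, averaged, was 0.518 in the release list and 0.546 among the enzymes. Of the most abundant precursors, Cck had an RNA log2 fold change upon DHPG of -0.03 (SE 0.063), Vgf of 0.07 (SE 0.035, adjusted p 0.639) and Sst of 0.08 (SE 0.042, adjusted p 0.675), and Sst RPFs differed by 0.13 (SE 0.049, description). Furin, a convertase of the trans-Golgi network, had 0.12 in RNA (SE 0.043, p 0.00808, adjusted p 0.546) and Pam, the amidating enzyme, -0.05 (SE 0.043), as against 0.05 (SE 0.040) for the carboxypeptidase Cpd. Rab2a, a GTPase of vesicle formation, had -0.10 in RNA (SE 0.040, adjusted p 0.571, lower in 6 of 6 contrasts) and 0.13 in RPFs (SE 0.048), while Atp6ap1 and Atp6ap2, which belong to the proton pump, had 0.01 and -0.02 in RNA. The fusion proteins Vamp2, Snap25 and the synaptotagmin Syt11 had RNA changes of 0.04, 0.0033 and 0.00061 on the log2 scale.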

How the data were processed

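RNA-seq and ribosome profiling were measured in 24 libraries, 12 per assay, grouped by the labels' genotype and treatment with 3 replicates a group. The authors trimmed reads with Cutadapt and Trimmomatic, removed rRNA and tRNA reads with bowtie2, mapped to mm10 with TopHat2, kept uniquely mapped reads, removed duplicates by molecular identifiers and counted with RSEM over RefSeq transcripts (RNA) or coding sequence without 30 nt at each end (RPF). The tables they deposited hold expected counts for each gene, rounded by the authors to whole numbers. Of non-zero RPF counts, 97.9% to 98.5% were even in replicates 2 and 3, against 48.2% to 49.0% in replicate 1, and halving them was an alternative.

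Genes were kept by filterByExpr (minimum count 10) and scaled by TMM. Group and replicate number were fitted on all libraries of an assay with the edgeR 4.0.16 quasi-likelihood test in R 4.3.3 (two-sided), and genes were called at a Benjamini-Hochberg adjusted p under 0.1, taken over all genes tested. TE was the interaction of assay and group over 24 libraries for 12785 genes. Its main fit blocked on replicate number within each assay and did not pair the RNA and RPF libraries of a lysate. CPM are TMM-scaled, log2 CPM used a prior count of 2, and RPKM used RefSeq lengths on GRCm38.p6, the same build as mm10. SE was taken from the F statistic. Alternatives were DESeq2 1.42.0, ComBat (sva 3.50.0) with DESeq2, other scaling, no filter, other models, the shortest coding transcript and leaving out libraries. The procedures were tested on simulated data.

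Members, lists and tests were chosen with earlier results of these data known. Named beyond the members were the 3 most abundant genes of each pathway list, neighbours of the rule's threshold and the 5 genes most like Resp18 in each assay. Coding G and C content was computed for 12238 of the RPF genes (95.0%) and 13288 of the RNA genes (91.5%). The promoter table held 9 members and not Cpe.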

Additional observations from a re-analysis of the deposited data

Results flagged for a closer look

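The change of Pcsk2 RNA upon DHPG had opposite signs in the 2 genotypes in every contrast of same-numbered libraries. In WT the log2 difference was 0.042 on average (0.0028 to 0.081), higher in 3 of 3, and in Tsc2+/- it was -0.072 (-0.14 to -0.0041), lower in 3 of 3. The test of the difference itself, the interaction in edgeR, gave a log2 value of -0.11 with p 0.117 and adjusted p 0.999. Of all 14516 RNA genes, 2.34% showed the same pattern, and 60 such checks were made over the members.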

How the results depend on the processing

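Over the alternatives, 561 of 566 values answering a comparison kept their direction and their side of the threshold or stayed within the spread between replicates. Most of these values were counts of members called. Few of all genes were called in any comparison, so such counts had little room to leave 0. Others were refits of Resp18 changes upon DHPG in the libraries that chose the gene. The tally is therefore description and no support for the results. The members called in RNA between genotypes, averaged, ranged from 0 to 1 when a replicate or library was left out, the 1 being Pcsk1n without replicate 1 or without the RNA library of Tsc2+/- vehicle replicate 1. In RPFs the same count ranged from 0 to 1, the 1 being Scg5 without replicate 3. Each assay had 15 such fits, and the share of all genes called in them is not given here. The TE change of Resp18 upon DHPG in Tsc2+/-, 0.09, turned to -0.016 without the RNA library of Tsc2+/- vehicle replicate 2 and to -0.015 without the RPF library of Tsc2+/- DHPG replicate 1. The cause was not tested, beyond fewer libraries in each fit. The averaged RPF change of Resp18 upon DHPG, 0.28, was 0.28 by DESeq2, 0.23 after ComBat, 0.30 with halved counts and 0.24 with the trend in G and C content and length removed, which was chosen after seeing the data. All are refits of the value that chose the gene and are description. Same-numbered libraries of different groups had deviations correlated at -0.047 to 0.29 in RNA (11 of 18 pairs over 0.1) and 0.032 to 0.35 in RPFs (13 of 18), against -0.26 to 0.13 and -0.30 to 0.10 between differently numbered libraries. The study's methods list 3 batches for these replicates without tying them to numbers, and nearly all RPF counts were even in replicates 2 and 3 but not in replicate 1 of each group. The number was in the model because the methods correct for batch. Without the replicate block, 0 members were called in any tested comparison, and the RPF change of Resp18 was 0.34 in WT, 0.20 in Tsc2+/- and 0.27 on average. Over all genes, calls without the block went from 14 to 5 in RNA between genotypes in vehicle, from 36 to 17 averaged, from 3 to 0 in RNA upon DHPG, averaged, and from 7 to 4 in RPFs between genotypes, averaged. DESeq2 called 26 in RNA upon DHPG, averaged, against 3, and 10 in RPFs between genotypes in vehicle against 3, and ComBat with DESeq2 called 4 in RNA between genotypes in vehicle against 14. With 3 libraries a group and RPF counts of Resp18 between 522 and 1649, the spread between libraries limits what can be told apart.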
